A study of Mus musculus with 4 samples.

Results

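Open chromatin regions (OCRs) of lymph node (LN) T reg cells were mapped by ATAC-seq, whose transposase cuts accessible DNA, and the caller MACS marks a peak where reads pile up. Described here are the regions with a called peak in both Il2ramut/mut libraries and none in either WT library. Peaks of the 4 lists were merged wherever they shared 1 bp. Chromosomes X and Y and unplaced scaffolds were left out, and so were 44 windows of 1 Mb with 300 or more peaks in every list. Of 232333 merged autosomal regions, 7827 met this rule, which is the background share of 3.37% itself. The calls chose the regions, so their number, place and column 8 (the caller's −log10 p) are given as a description, with no test.

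The libraries came from female C57BL/6 mice 6 to 8 weeks old, kept at steady state and not treated, 2 WT and 2 Il2ramut/mut, with 2 libraries per genotype and 50000 RFP+ T reg cells sorted per library. All 4 mice carried the Foxp3Rfp/Rfp reporter, which marks Foxp3+ cells with a red fluorescent protein. Il2ramut/mut mice carry a germline point mutation in CD25, the high-affinity chain of the IL-2 receptor, that lowers CD25 at the cell surface. The mutation came from a Ccr2-/- colony and was crossed onto B6 to give Ccr2+/+ animals, and it is present in every cell that uses the gene, not in T reg cells alone. The labels do not tie a library to a mouse, and every count below rests on these 4 libraries.

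T reg cells hold autoimmunity in check and depend on IL-2, which they bind through CD25 and which signals through JAK kinases to the transcription factor STAT5. Much of the chromatin that differs between T cell states lies at distal elements in introns and between genes, where factors such as AP-1 (activator protein 1, formed by JUN, FOS and BATF proteins), RUNX, ETS and STAT proteins bind. Activated T reg cells carry surface receptors such as KLRG1, PD-1 and TIM-3 that resting ones largely lack.

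Of the 10 regions whose weaker library ranked highest in column 8, 7 are printed, with the regions of the set at Il2ra, Klrg1 and Havcr2, because the results below turn on them. Each line holds 160 bases centred on the summit with the higher column 8, on the plus strand of RefSeq GRCm38.p6 (the coordinates of mm10, the build of the files), with capitals for matches to any of 10 motif words searched on both strands. The capitals mark the AP-1 word TGANTCA in the first 5 sequences and the GATA word AGATAAG in the third Klrg1 sequence, and the remaining 7 hold none of the words.
Baiap3 exon, chr17:25248475-25248634: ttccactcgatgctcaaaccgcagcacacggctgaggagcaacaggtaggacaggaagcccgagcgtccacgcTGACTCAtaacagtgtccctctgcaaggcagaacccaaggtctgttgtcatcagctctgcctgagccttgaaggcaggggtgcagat
Atxn7 intron, chr14:14025882-14026041: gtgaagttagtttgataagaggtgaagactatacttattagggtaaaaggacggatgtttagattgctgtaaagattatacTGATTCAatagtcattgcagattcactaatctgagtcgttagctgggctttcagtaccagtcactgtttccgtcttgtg
Gins1 intron, chr2:150918829-150918988: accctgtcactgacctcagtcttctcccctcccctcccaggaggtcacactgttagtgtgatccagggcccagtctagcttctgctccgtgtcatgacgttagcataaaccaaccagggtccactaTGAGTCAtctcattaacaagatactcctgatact
Igfbp7 intron, chr5:77372913-77373072: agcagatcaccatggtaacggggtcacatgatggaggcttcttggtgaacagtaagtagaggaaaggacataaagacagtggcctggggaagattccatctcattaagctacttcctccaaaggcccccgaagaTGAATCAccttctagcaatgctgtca
Havcr2 start, chr11:46454688-46454847: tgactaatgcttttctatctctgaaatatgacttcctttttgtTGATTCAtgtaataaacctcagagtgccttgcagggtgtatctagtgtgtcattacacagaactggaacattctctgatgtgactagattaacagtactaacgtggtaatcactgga
Klrg1 distal, chr6:122262608-122262767: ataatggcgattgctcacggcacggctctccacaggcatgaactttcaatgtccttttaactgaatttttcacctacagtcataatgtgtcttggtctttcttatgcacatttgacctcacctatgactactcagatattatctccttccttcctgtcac
Klrg1 downstream, chr6:122270211-122270370: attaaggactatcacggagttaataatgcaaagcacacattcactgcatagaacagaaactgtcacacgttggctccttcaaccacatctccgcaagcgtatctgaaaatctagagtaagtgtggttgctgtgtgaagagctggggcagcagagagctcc
Klrg1 intron, chr6:122274673-122274832: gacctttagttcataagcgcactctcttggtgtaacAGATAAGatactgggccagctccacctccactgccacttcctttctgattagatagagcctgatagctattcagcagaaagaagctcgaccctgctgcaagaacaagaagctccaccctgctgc
Il2ra upstream, chr2:11641197-11641356: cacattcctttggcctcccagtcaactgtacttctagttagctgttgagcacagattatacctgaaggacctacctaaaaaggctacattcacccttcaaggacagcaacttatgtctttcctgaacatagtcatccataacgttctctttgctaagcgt
Havcr2 intron, chr11:46462145-46462304: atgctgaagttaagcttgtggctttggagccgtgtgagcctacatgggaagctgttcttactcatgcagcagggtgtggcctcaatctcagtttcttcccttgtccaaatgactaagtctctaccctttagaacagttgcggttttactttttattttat
Casz1 intron, chr4:148940704-148940863: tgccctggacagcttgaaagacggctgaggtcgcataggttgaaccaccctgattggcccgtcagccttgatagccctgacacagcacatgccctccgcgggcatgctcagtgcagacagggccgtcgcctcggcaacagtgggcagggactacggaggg
Tmprss13 exon, chr9:45329611-45329770: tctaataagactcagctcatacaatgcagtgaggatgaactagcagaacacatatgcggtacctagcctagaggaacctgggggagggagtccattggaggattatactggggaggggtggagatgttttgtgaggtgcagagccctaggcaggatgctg
Intergenic near Gm22968, chr8:127915580-127915739: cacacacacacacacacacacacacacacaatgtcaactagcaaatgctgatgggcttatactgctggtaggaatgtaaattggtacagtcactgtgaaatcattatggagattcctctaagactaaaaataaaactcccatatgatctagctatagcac

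The label of the cells was checked against defining genes. A called peak lay within 1 kb of the transcription start site (TSS) of all 5 T reg markers in all 4 lists, and of 4 or 5 of 5 T cell markers, Cd28 being without one in both Il2ramut/mut lists. The B cell list had such a peak at 0 to 2 of 6 genes per library, the myeloid and dendritic list at 0 or 1 of 9, and the NK and CD8 list at 0 to 2 of 5. Stromal and endothelial markers had one at 1 of 5 genes in 3 libraries and at 4 of 5 in Il2ramut/mut replicate 2, whose part in the results was not tested. The lists held 112569 to 142732 peaks and give no library totals, so the number of reads per library is unknown. The deposited fold enrichments step in whole reads, which gave the reads at each summit. In each list 100% of the peaks met a limit of 0.05 read, to which the tallest peaks were not held. The same steps gave a background of 0.974 reads in WT replicate 1 and 0.979 in WT replicate 2. In Il2ramut/mut replicate 1 the background was 1.23 reads, and in replicate 2 it was 1.06. Reads at summits are not scaled for this difference. The lowest number of reads at a called summit was 5 in 3 libraries and 6 in Il2ramut/mut replicate 1. A region without a WT peak may thus hold WT reads below that limit.

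More regions were shared by the Il2ramut/mut libraries alone than by any other pair of libraries alone. The WT libraries alone shared 5768 regions (2.48% of all). The crossed pairs, which join a WT and an Il2ramut/mut library and so hold no genotype in common, shared 3940 (WT replicate 1 with Il2ramut/mut replicate 1, 1.70%), 4844 (WT replicate 1 with Il2ramut/mut replicate 2, 2.08%), 5445 (WT replicate 2 with Il2ramut/mut replicate 1, 2.34%) and 7584 (WT replicate 2 with Il2ramut/mut replicate 2, 3.26%). The last of these joins the longest WT list with the longest Il2ramut/mut list, and with peaks joined only at a 50% overlap it had more regions (6815) than the Il2ramut/mut pair (6719). With every list cut to the length of the shortest, the Il2ramut/mut pair shared 5682 regions, fewer than the 5863 of the WT pair and more than the 3947 to 5303 of the crossed pairs. With only peaks of a −log10 q of at least 3, it shared 5827, against 2773 in the WT pair and 1787 to 4220 in the crossed pairs. Of the 49325 regions called in both Il2ramut/mut libraries, 15.9% lacked a WT peak, and of the 46254 called in both WT libraries 12.5% lacked an Il2ramut/mut peak.

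The Il2ramut/mut regions lay in stretches crowded with peaks. Windows of 1 Mb with 100 or more peaks in every list (called crowded here, 146 in number, the 44 already left out not counted) contained 3592 of them (45.9%), against 31.1% of all merged regions and 11.2% of the 32960 regions called in all 4 libraries. In the WT pair this share was 36.3%, and in the crossed pairs 37.6% to 52.0%. Outside these windows 4235 Il2ramut/mut regions remained, fewer than the 4732 of WT replicate 2 with Il2ramut/mut replicate 2 and more than the 1892 to 2823 of the other crossed pairs and the 3673 of the WT pair. The limit of 100 was chosen after the data were seen.

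**Figure D1:**
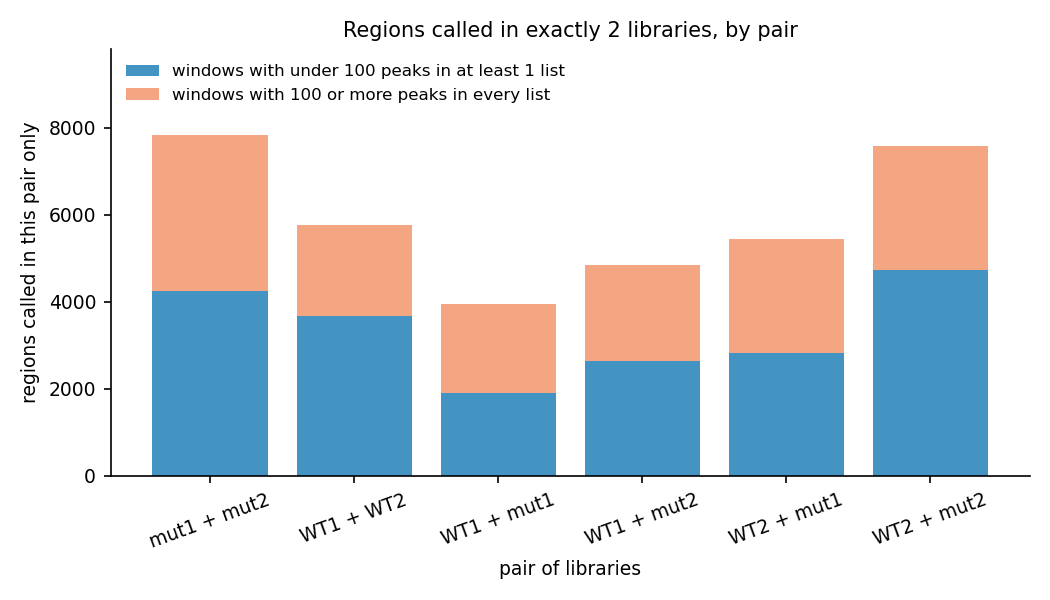
Number of regions called in exactly 2 libraries (y axis), for each pair of libraries (x axis; WT1 and WT2 are the WT replicates, mut1 and mut2 the Il2ramut/mut replicates), split by whether the 1 Mb window held 100 or more peaks in every list. Il2ramut/mut has the tallest bar (7827), but outside the crowded windows the pair WT2 + mut2 (4732) is above it (4235).

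The Il2ramut/mut regions were also clustered within windows. Windows with 10 or more of them numbered 228 and held 64.4% of all, against 38.4% of the WT pair's and 44.7% to 54.4% of the crossed pairs' regions in windows with 10 or more of their own. The sets ran from 3940 to 7827 regions, and a larger set passes a fixed limit more easily. WT replicate 2 with Il2ramut/mut replicate 2, the nearest in size at 7584 regions, had 44.7%. The window with the most Il2ramut/mut regions was chromosome 9 from 112 to 113 Mb, with 80 Il2ramut/mut regions against 15 of the WT pair and 19 to 26 of the crossed pairs. The lists held 235 and 278 WT peaks and 431 and 449 Il2ramut/mut peaks there. The highest number in 1 window was 121, in the WT pair. The adjoining window from 111 to 112 Mb held 57 against 1 and 8 to 12, with 97 and 74 WT peaks and 245 and 281 Il2ramut/mut peaks. Windows at the limit of 300 were similar on both sides: the last 2 kept held 25 and 33 Il2ramut/mut regions, and the first 2 left out held 23 and 55. The regions were spread over every autosome, from 2.54% of all merged regions on chromosome 10 to 4.21% on chromosome 9. Within 10 Mb of Il2ra, the mutated gene, 67 of 1802 merged regions belonged to the set (3.72%), against 2.63% on chromosome 2 as a whole. The WT pair had 22 regions there and the crossed pairs 16 to 51. Within 10 Mb of Ccr2 the set had 30 of 886 (3.39%), against 4.21% on chromosome 9 as a whole. The WT pair had 31 there and the crossed pairs 12 to 33. The background over all autosomes was 3.37%.

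Most regions called in both Il2ramut/mut libraries only lay outside promoters, as did those of every other pair. Within 1 kb of a TSS lay 480 of them (6.13%, 95% Wilson interval 5.62 to 6.69, which like all intervals here covers counting error only), in introns 43.7%, between genes 43.1%, in exons 4.66% and within 3 kb downstream of a gene 2.40%. The promoter share was 8.98% in the WT pair and 5.38% to 8.98% in the crossed pairs, so it was inside their range, and 37.8% in regions called in all 4 libraries. Of all merged regions 10.6% lay within 1 kb of a TSS, 41.95% in introns and 39.7% between genes. The Il2ramut/mut regions were a median of 25998 bp from the nearest TSS. This distance was 16180 bp in the WT pair and 18064 to 27102 bp in the crossed pairs. It was 4250 bp in regions of all 4 libraries and 20457 bp in all merged regions. From the nearest region called in all 4 libraries the Il2ramut/mut regions were a median of 25762 bp away. That gap was 12907 bp in the WT pair and 14884 to 26157 bp in the crossed pairs. The median width of the Il2ramut/mut regions was 398 bp, against 388 bp in the WT pair and 383 to 393 bp in the crossed pairs. It was 726 bp in regions of all 4 libraries. The nearest WT peak was a median of 1107 bp away, within 100 bp at 646 regions and over 10 kb away at 10.8%. To the nearest peak of a library outside the pair, the median was 1132 bp in the WT pair and 803.5 to 1210 bp in the crossed pairs. Over 10 kb away were 12.4% of the WT pair's regions and 5.51% to 13.4% of the crossed pairs'.

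**Figure D2:**
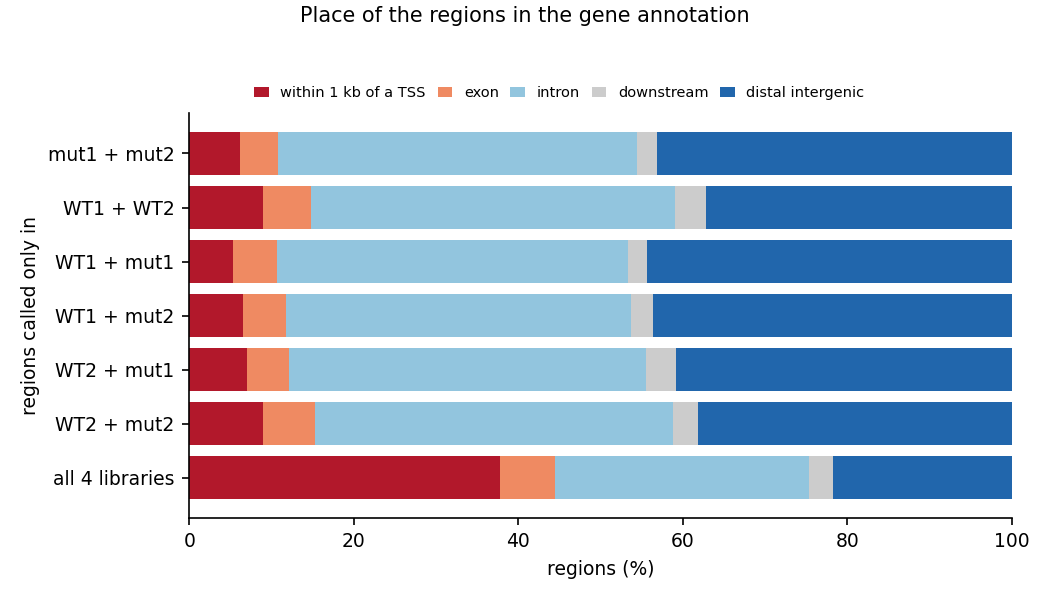
Share of regions (x axis, %) in each class of the gene annotation, for the regions called only in each pair of libraries and in all 4 (rows). The 6 pairs look alike, with 5.38% to 8.98% within 1 kb of a TSS, and regions of all 4 libraries stand apart at 37.8%.

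In column 8 the regions stood near the middle of their lists at the median, below regions of all 4 libraries. In Il2ramut/mut replicate 1 it ran from 3.54 over a median of 6.15 to 27.5, and in replicate 2 from 3.10 over 5.75 to 21.0, which are values of each list on its own and are not compared between lists. At the median they held 9 and 8 reads at the summit and stood at the percentiles 48.7 and 56.5 of their lists, whereas regions of all 4 libraries stood at 85.9 and 88.0. Pearson's r of the log2 reads at the summit in both Il2ramut/mut libraries was 0.15 across the 7827 regions, which were chosen by those calls. It was 0.94 across the regions of all 4 libraries. These values are over unlike ranges and do not compare the agreement of the libraries. The set held 6 to 27 reads in replicate 1 and 5 to 21 in replicate 2. Regions of all 4 libraries held 6 to 6323 and 5 to 5881. Limits in reads are not scaled between libraries, and the background was higher in the Il2ramut/mut lists. With 8 or more reads in both libraries there were 3859 Il2ramut/mut regions, the most of any pair (WT pair 2114, crossed pairs 1342 to 2696). With 12 or more, 76 remained, against 169 in the WT pair and 7, 11, 51 and 74 in the crossed pairs. With 15 or more, 12 remained, against 58 in the WT pair and 0 to 3 in the crossed pairs. Just outside the rule were 8538 regions called in both Il2ramut/mut libraries and 1 WT library, whose WT peak held a median of 8 reads and 5 at the least.

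**Figure D3:**
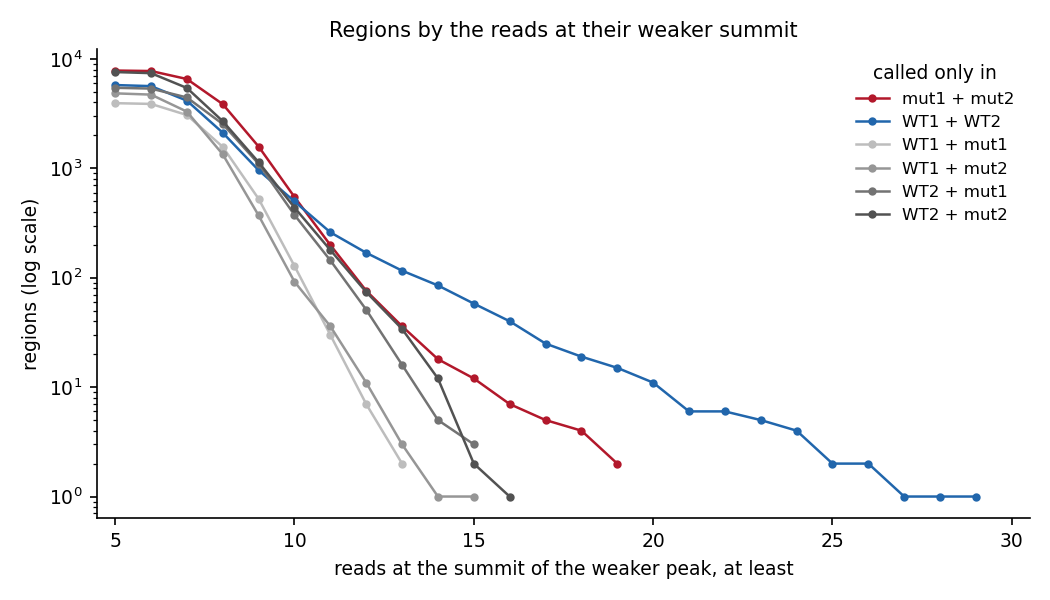
Number of regions (y axis, log scale) whose weaker peak held at least the number of reads on the x axis, for regions called only in each pair of libraries. The Il2ramut/mut line (red) is highest at 8 reads (3859), meets that of WT2 + mut2 at 12 (76 and 74) and is below the WT pair (169) there.

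The 10 regions whose weaker library ranked highest were distal or in gene bodies, and none lay within 1 kb of a TSS. They held 17 to 27 reads in Il2ramut/mut replicate 1 and 14 to 19 in replicate 2. The first lay on chromosome 6 from 134716128 to 134716556, in an exon of Dusp16, a phosphatase that switches off MAP kinases, with 27 and 18 reads and column 8 of 27.5 and 17.1. The second, on chromosome 4 from 148940554 to 148941021, lay in an intron of the zinc finger gene Casz1, with 21 and 19 reads. Next came an exon of Baiap3 (chromosome 17 from 25248031 to 25248753, 19 and 19 reads) and an intron of Atxn7, a subunit of the SAGA coactivator (chromosome 14 from 14025794 to 14026303, 19 and 15 reads). These 4 regions were 5.89 to 37.3 kb from the nearest WT peak.

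A further 4 of the 10 lay in introns of Gins1, a subunit of the replication complex GINS (18 and 19 reads), and of Igfbp7 (18 and 16), in an exon of Tmprss13 (19 and 14), and between genes near Gm22968 (17 and 17). Gins1 had a further intronic region, from 150912210 to 150912590 on chromosome 2, with 16 and 13 reads, while a region over a start site of the gene was called in all 4 libraries. Every 1 Mb window around these 10 regions held 65 or fewer peaks in at least 1 list, so none lay in a crowded window. Among the 76 regions with 12 or more reads in both libraries, 3 (3.95%) lay in a crowded window, against 47.1% of the 3968 with 5 to 7 reads in the weaker library. The 4 classes of reads were chosen after their values were seen.

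Among the 10 motif words, AP-1 was the most common. It was found in 863 Il2ramut/mut regions (11.03%, interval 10.4 to 11.7) within 300 bp around the summit, against 9.33% in the WT pair, 9.19% to 10.7% in the crossed pairs, 10.9% in regions of all 4 libraries and 10.2% of all merged regions. In the 76 regions with 12 or more reads in both libraries it was found in 20 (26.3%, interval 17.7 to 37.2), against 10.7% of those with 5 to 7 reads, 10.9% with 8 or 9 and 12.3% with 10 or 11. At 12 or more reads the WT pair had it in 17 of 169 (10.1%, interval 6.38 to 15.5), WT replicate 2 with Il2ramut/mut replicate 1 in 12 of 51 (23.5%, interval 14.0 to 36.8) and WT replicate 2 with Il2ramut/mut replicate 2 in 5 of 74 (6.76%, interval 2.92 to 14.9). The crossed pairs with WT replicate 1 had 7 and 11 such regions, with 0 holding the word, too few for a share. The high share was therefore not limited to the Il2ramut/mut pair, and both pairs that had it include Il2ramut/mut replicate 1. Of the 10 highest-ranked regions, 6 held the word within the 160 bases around the summit, 4 of them printed above. Distal regions of all 4 libraries, over 1 kb from a TSS, had it in 14.3%.

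**Figure D4:**
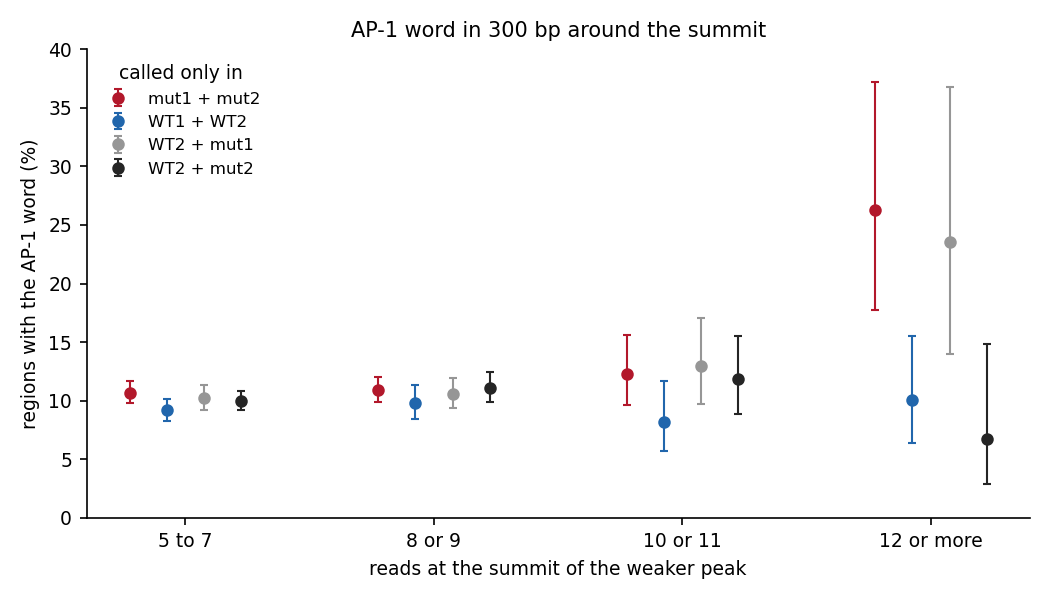
Share of regions with the AP-1 word (y axis, %) by the reads at the weaker summit (x axis), for the 4 pairs with more than 50 regions in the highest class. Bars are 95% Wilson intervals, and at 12 or more reads mut1 + mut2 (26.3%) and WT2 + mut1 (23.5%) lie above WT1 + WT2 (10.1%) and WT2 + mut2 (6.76%).

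The ETS word, searched as CCGGAAG, was in 1.47% of the regions, against 9.52% of those in all 4 libraries, with 1.61% in the WT pair and 1.12% to 1.74% in the crossed pairs. The KLF word CCACGCCC (in 0.805% against 4.84%), the RUNX word TGTGGTTT (in 2.43% against 4.74%) and the word AGGGGGC of the insulator protein CTCF (in 4.22% against 10.2%) were likewise scarcer than in regions of all 4 libraries, as they were in every other pair. The GAS word TTCNNNGAA, which STAT proteins bind, was in 8.84%, against 8.86% in regions of all 4 libraries, 9.71% in the WT pair and 8.78% to 9.46% in the crossed pairs. The TCF/LEF word CTTTGAT was in 4.79% (WT pair 6.42%, crossed pairs 4.44% to 5.17%), the GATA word named above in 4.22%, the FOXO word TGTTTAC in 3.64% and the NF-kappaB word GGGAATTTC in 0.256%. Of all merged regions, the words were in 2.49% (ETS), 2.88% (RUNX), 9.31% (GAS), 1.34% (KLF), 4.09% (FOXO), 5.09% (TCF/LEF), 4.17% (GATA), 0.251% (NF-kappaB) and 5.03% (CTCF). The median GC content of the 300 bp was 48.0%, within the 46.7% to 48.0% of the other pairs, against 52.0% in regions of all 4 libraries. These are matches of letters, not bound sites.

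By nearest TSS the regions belonged to 3509 genes, of which 1254 had 2 or more and 103 had 10 or more. In the WT pair 869 genes had 2 or more and 42 had 10 or more, and in the crossed pairs 747 to 1198 and 20 to 49. These counts are not adjusted for the unequal number of regions in each pair. Of the 1254 genes, 336 (26.8%) were protein-coding, a share that was not set beside that of all genes or of the other pairs. Genes with several regions had more sequence around them: the stretch to which a gene's TSS is the nearest had a median of 110.6 kb for the 1254 genes, 60.5 kb for genes with 1 region and 26.6 kb for all genes. Per Mb of such sequence, the regions numbered 2.00 where the stretch was under 10 kb and 3.73 where it was 200 kb or more, and 3 crossed pairs were likewise lower in the short stretches (0.817, 1.60 and 1.61) than in the long ones (2.03, 2.32 and 2.36). The WT pair went from 3.29 to 1.93, WT replicate 2 with Il2ramut/mut replicate 2 from 4.03 to 2.66, and regions of all 4 libraries from 56.8 to 3.52 per Mb.

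The 15 genes with the most regions had 21 to 28 each, and 11 of them had all of theirs in crowded windows. They were 1700123O21Rik (28), Gm10421 (26), Rnf32 (26), Gm43161 (25), Sgcd (24), Galnt18, Gm15387, Gm36251 and Ntm (23 each), Gm5338, 4930548J01Rik, C030037F17Rik, Kalrn and 4930545L08Rik (22 each) and Gria1 (21). Sgcd encodes a sarcoglycan of muscle membranes, Ntm a neuronal adhesion protein, Kalrn an exchange factor for small GTPases and Gria1 a subunit of the AMPA glutamate receptor. Rnf32, a ring finger gene, had 26 of its 192 merged regions, against 0 in the WT pair and 4, 6, 3 and 3 in the crossed pairs. Its neighbour Gm43161 had 25 of 244, against 0 in the WT pair and 4 to 16 in the crossed pairs. None of the windows of Rnf32 was crowded, which takes 100 or more peaks in every list. On chromosome 5 from 28 to 29 Mb, where both genes have regions, the lists held 87 and 101 WT peaks and 241 and 177 Il2ramut/mut peaks. At 4930545L08Rik there were 22 of 144, against 1 in the WT pair and 1 to 5 in the crossed pairs. At Rnf32 the regions held 7 to 13 reads in Il2ramut/mut replicate 1 and 5 to 10 in replicate 2. At Sgcd the WT pair had 12 and the crossed pairs 8 to 19, so that the lead of the Il2ramut/mut pair was small there.

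Counted by the gene body they lay in, 3417 regions (43.7%) were inside 1282 protein-coding genes, and those with the most were long genes. The same share was not taken over all merged regions. Slit3, a guidance ligand, had 52 of its 439 merged regions, against 8 in the WT pair and 8 to 19 in the crossed pairs. Dlgap2, a protein of the postsynaptic density, had 44 of 423 (WT pair 4, crossed pairs 8 to 15). Ptprn2, a phosphatase-like protein of secretory granules, had 44 of 539 (12 and 18 to 26). Among the 12 genes with the most, Alk and Ntrk2, both receptor tyrosine kinases, had no region in a window crowded in every list. They had 30 of 451 merged regions (WT pair 4, crossed pairs 9 to 12) and 29 of 290 (11 and 6 to 16). The genes named in this paragraph were chosen after their values were seen.

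Klrg1 encodes an inhibitory lectin-like receptor of activated lymphocytes and lies on chromosome 6 from 122270596 to 122282882 (minus strand). Of the 4 merged regions nearest to its TSS, 3 were called in both Il2ramut/mut libraries only, and none belonged to the WT pair or a crossed pair. The region in its intron, from 122274531 to 122274870, held 15 reads in Il2ramut/mut replicate 1 and 11 in replicate 2. The second, from 122270158 to 122270489 just downstream of the gene, held 13 and 10. The third, from 122262531 to 122263014 and 19.9 kb from the TSS, held 13 and 8. The remaining region, at 23.4 kb from the TSS, was called in all 4 libraries with 6 and 8 reads in WT and 10 and 10 in Il2ramut/mut. Column 8 was 10.2 to 12.4 in replicate 1 and 5.75 to 8.81 in replicate 2 across the 3 regions, and the nearest WT peak was 3.32, 10.9 and 15.3 kb away. No peak was called at the start of the gene in any library.

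Havcr2 encodes TIM-3, a receptor of activated and terminally differentiated T cells, and lies on chromosome 11 from 46454935 to 46481255 (plus strand). Of 4 merged regions nearest to it, 2 were called in both Il2ramut/mut libraries only. The first, from 46454584 to 46455083, covered its TSS and held 13 and 9 reads, and the AP-1 word in its printed sequence lies upstream of the TSS. The second, from 46462002 to 46462401 in an intron, held 21 and 8 reads. Another intronic region was called in WT replicate 2 (13 reads) and Il2ramut/mut replicate 1 (9 reads), and the remaining one in all 4 libraries, with 7 and 10 reads in WT and 17 and 15 in Il2ramut/mut.

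S100a4, a calcium-binding protein gene active in effector and memory T cells, was named after its values were seen. A region over its TSS, on chromosome 3 from 90603514 to 90603957, held 13 and 15 reads and was among the 11 of the 76 strongest regions (14.5%, interval 8.28 to 24.1) within 1 kb of a TSS. The WT pair had 14.8% there at the same limit and WT replicate 2 with Il2ramut/mut replicate 2 14.9%. At Il2ra itself, on chromosome 2 from 11642807 to 11693193, 1 of 17 merged regions belonged to the set. It lay 1190 bp upstream of the TSS, from 11641251 to 11641617, and held 9 and 8 reads. The promoter of Il2ra was called in all 4 libraries, with 41 and 58 reads in WT and 29 and 27 in Il2ramut/mut, numbers that are not scaled between libraries.

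**Figure D5:**
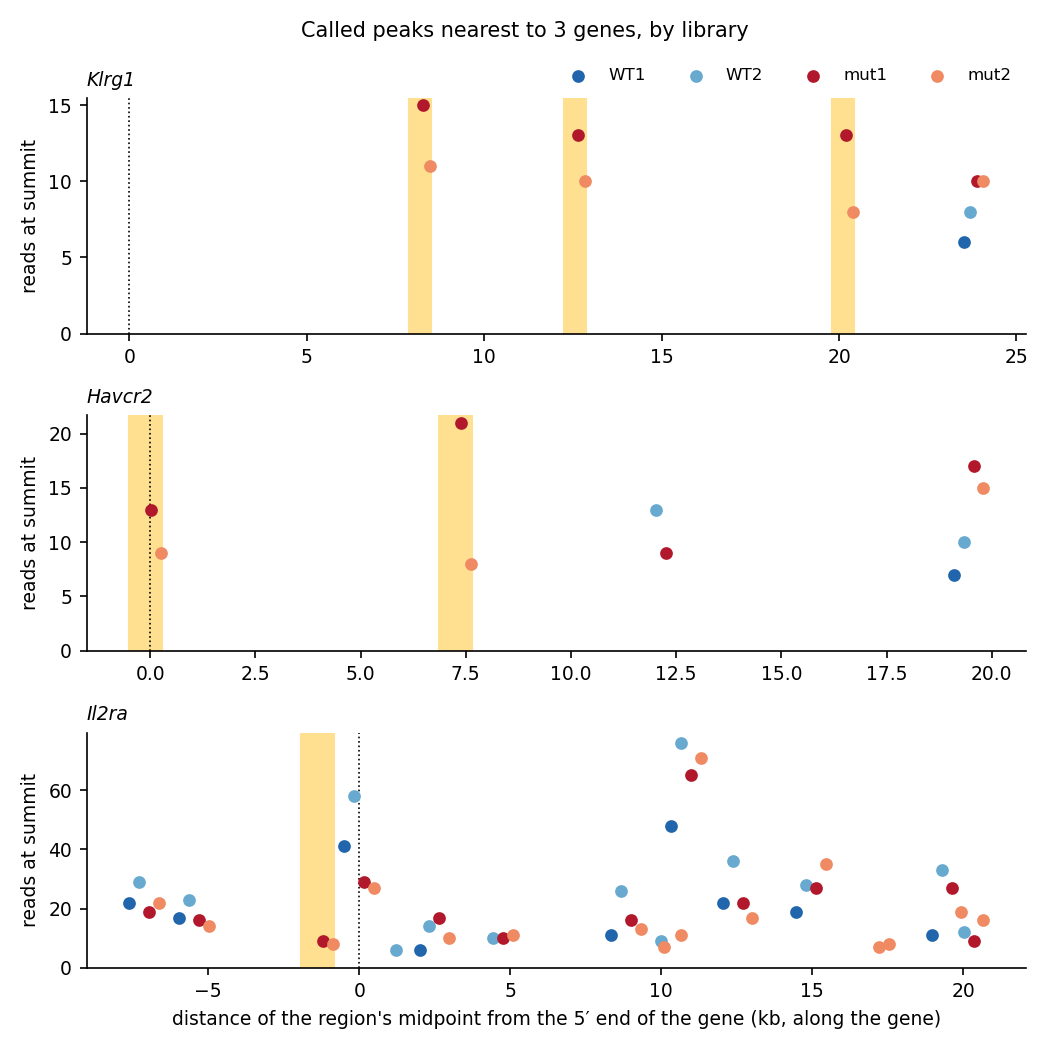
Reads at the summit of each called peak (y axis) against the distance of its region from the 5′ end of the gene (x axis, kb), for the regions nearest to Klrg1, Havcr2 and Il2ra. Each dot is a library's peak, set slightly sideways within a region so that dots stay visible, and yellow bands, drawn wider than the regions, mark the regions called in both Il2ramut/mut libraries only (3, 2 and 1). Dotted lines mark the 5′ end.

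Gene lists drawn up from textbook knowledge held few of the regions. Of the 15 autosomal genes of the IL-2 receptor and STAT5 pathway, 2 had a region, Il2ra and the survival gene Bcl2, with 2 of the 123 merged regions of the list (1.63%, against 3.37% of all). Of 21 genes of T reg identity and suppression, 4 had 5 of 153 regions (3.27%): Havcr2, the costimulatory receptor gene Tnfrsf4, Pdcd1, which encodes PD-1, and Lrrc32, which encodes the TGF-beta carrier GARP. Resting T cell genes had 3 of 207 (1.45%, at Klf2, Klf3 and S1pr1), effector T reg and helper factors 6 of 247 (2.43%), T cell receptor signalling genes 2 of 150 (1.33%, at Nfatc1 and Nfkb1) and chemokine receptors and adhesion genes 3 of 102 (2.94%, at Ccr6, Cxcr4 and Cd44). The effector list owed 4 of its 6 to Rora, a nuclear receptor gene of T reg and helper cells, all in introns of a crowded window, with 7 to 11 reads in replicate 1 and 6 to 9 in replicate 2. Long genes best known from neurons had 7 of 601 (1.17%), 6 of them at the adhesion gene Opcml. All 7 shares were below the background, though 3.27% was close to it. The T cell lists are richer in regions called in all 4 libraries, so their shares are not like for like with the background. Such regions numbered 64 of 123, 74 of 153, 93 of 207, 68 of 247, 77 of 150 and 49 of 102 there, in the same order, against 14.2% of all merged regions. The neuron list went the other way, with 9 of 601. Genes with a region of the WT pair numbered 2, 2, 6, 3, 4, 3 and 2 in these lists, in the same order. WT replicate 2 with Il2ramut/mut replicate 2 had a region at 6, 4, 7, 4, 5, 3 and 3 genes, and the other crossed pairs at 0 to 5 per list.

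Of the 7 autosomal genes that the study names on LN T reg cells, only Klrg1 had a region by nearest TSS, and its 3 made up 6.67% of the 45 merged regions of that list. Tigit, Cd80, Ccr4 and Btla had 0, and so had Ccr2. Ikzf2, which encodes the T reg factor Helios, had 0 by nearest TSS but 4 of the 41 merged regions inside its body. The WT pair had 1 there and the crossed pairs 0 to 3. The list was chosen by the study on these libraries, so its count is not independent evidence.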

How the data were processed

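The authors trimmed the reads with Trim Galore (0.3.7), aligned them to mm10 with BWA mem (0.7.13), removed duplicated and mitochondrial reads with SAMtools (0.1.19) and Picard (1.92), kept concordant pairs, shifted them and ran MACS2 (2.1.0) on each library separately for narrow peaks, as the paper and the submitters' processing notes state. The deposited lists give, per peak, position and summit, a score, the authors' fold enrichment (a ratio to the background), the −log10 p (column 8) and the −log10 q. The paper then used an Irreproducible Discovery Rate analysis to find peaks reproducible between replicates. That step was not applied here, so the counts of peaks and regions are not the study's OCR numbers. The tracks of reads were not used here.

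From the lists, peaks were merged with Python (3.11.15), numpy (2.4.6) and pandas (2.3.3), and regions were placed by the shortest distance between region and TSS in the GENCODE vM21 basic annotation of GRCm38 (51229 autosomal genes). Peak heights were turned into reads from the steps of the fold enrichment. Intervals are 95% Wilson intervals (scipy 1.17.1), and plots were drawn with matplotlib (3.10.9). No test was run, since the calls define the regions and libraries number 2 per genotype. The merging, placing and read steps were tested on simulated data, and 7 of 7 checks came out as set.

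The regions, gene lists and motif words were chosen with earlier results of these data known. Genes named are the 15 with the most regions, the 10 regions whose weaker library ranked highest, listed genes with 2 or more regions, the genes the study names at these libraries, Il2ra and Ccr2, except that 2 regions and 1 gene these rules would name are not reported here. Others are described as chosen after their values were seen, or stand as the members of a count. Alternatives were a 50% overlap, merging up to 100 bp, the 44 windows of 300 or more peaks kept, a stricter q, lists of equal length, placing by midpoint, protein-coding TSSs, a 200 bp motif window and leaving out each library. A limit of 100 peaks per window was added after seeing the data. No sequence that touches a UTR is printed.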

Additional observations from a re-analysis of the deposited data

Results flagged for a closer look

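In data outside the rule, some regions were called in both Il2ramut/mut libraries only in higher number than in the WT pair. In the 44 windows with 300 or more peaks in every list there were 1795 such regions, against 1522 in the WT pair and 1213 to 1679 in the crossed pairs. Unplaced scaffolds held 17, against 11 in the WT pair and 8 to 19 in the crossed pairs. Chromosome Y held 5 of 43 merged regions, against 0 in the WT pair and 0 to 1 in the crossed pairs, in mice labelled female. Of these 43 regions, 19 were called in all 4 libraries, WT included. Chromosome X held 35, against 42 in the WT pair. The causes were not tested.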

How the results depend on the processing

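The number of regions stayed within 1.5 times of 7827 under a 50% overlap (6719), merging up to 100 bp (7919), the 44 densest windows kept (9622), the stricter q (5827) and lists of equal length (5682), and was 4235 with windows of 100 or more peaks left out. With each library left out in turn, so that the remaining library of its genotype decided alone, it lay between 10827 (without WT replicate 1) and 56780 (without Il2ramut/mut replicate 1), with 13545 without WT replicate 2 and 43861 without Il2ramut/mut replicate 2. The share within 1 kb of a TSS was 5.36% with the 44 densest windows kept, 7.38% with the stricter q, 8.00% without windows of 100 or more, 5.29% by midpoint and 2.72% for protein-coding TSSs, and 4.78% to 8.03% with a library left out. The share in introns or between genes, 86.8%, was 88.3%, 84.7%, 84.2% and 89.6% under the first 4 of these, 85.8% for lists of equal length and 83.7% to 89.0% with a library left out. The median column 8 (mean of both libraries), 5.95, was 6.49 with the stricter q, 6.43 for lists of equal length and 4.82 to 6.15 with a library left out. Genes with 2 or more regions numbered 657 without windows of 100 or more, and 1541 to 6927 with a library left out. In 200 bp the motif shares were 8.08% for AP-1, 1.02% for ETS, 1.67% for RUNX, 5.61% for GAS, 0.626% for KLF, 2.56% for FOXO, 3.23% for TCF/LEF, 2.77% for GATA and 2.81% for CTCF, a shorter window holding fewer matches. No paired analysis was possible because the results come from no test. The number of reads per library is unknown, and peaks of 5 to 9 reads make up most of the regions.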

Other observations

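Of the genes with 2 or more regions called in both Il2ramut/mut libraries only, 85 of 1254 (6.78%) had, by nearest TSS, no region of the WT pair or of any crossed pair. Counted the same way, the WT pair had 132 such genes of its own (15.2% of 869), WT replicate 2 with Il2ramut/mut replicate 2 had 162 (13.5% of 1198), and the other crossed pairs had 18 to 41 (2.41% to 4.90%), so the share of the Il2ramut/mut pair was inside their range. Sox2ot, a long non-coding RNA gene over the stem cell factor gene Sox2, had the most, with 6 of its 47 merged regions, 7 to 12 reads in Il2ramut/mut replicate 1 and 6 to 8 in replicate 2. Ntrk2, which encodes a neurotrophin receptor, had 3 of 7, all over annotated start sites of the gene, with 8 to 11 and 7 to 9 reads, although its body as a whole held 11 regions of the WT pair and 6 to 16 of the crossed pairs. Lnx2, a ubiquitin ligase gene, had 3 of 9 with 8 to 12 and 7 to 11 reads, and 5 of the 9 were called in all 4 libraries. These genes were named after their values were seen.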
